A study of Mus musculus with 16 samples.

Results

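The 32 genes described here were mostly enzymes, transporters and regulators of glycolysis and of the pentose phosphate pathway. Hif1a and Bnip3 belong to the hypoxia response. The genes were chosen by symbol, with earlier results of these data known. All 32 were found among the 27998 genes of the count matrices, each in 1 row. The study asked how chronic exposure to the inflammatory cytokine IL1β acted on bone marrow cells with and without Tet2, a DNA demethylating enzyme often lost in clonal hematopoiesis. C57BL/6 mice of 6 to 12 weeks by the labels received recombinant IL1β at 500 ng per mouse per day, or vehicle, by intraperitoneal injection for 5 weeks. All animals carried the floxed alleles, written Tet2fl/fl. WT animals carried no Cre, whereas Tet2-KO animals also carried Vav-Cre, which is active in all blood cells from stem cells onward, so effects of the transgene and of the loss of Tet2 cannot be told apart. There were 4 groups of 4 mice, namely WT vehicle, WT IL1β, Tet2-KO vehicle and Tet2-KO IL1β.

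Red cells were lysed, marrow was depleted of lineage-positive cells, and cells from 2 mice of the same group, marked with different hashtag antibodies, were pooled in each of 8 droplet libraries. After filtering, 94917 cells were kept, of which 57896 carried the hashtag of 1 mouse. This gave 698 to 6432 cells and 4388604 to 44152768 UMIs per mouse. WT vehicle mouse 2 had the fewest. Any pair of libraries shared at most 57 cell barcodes. Cells whose sex-linked transcripts went against the majority of their mouse made up over 1% of the cells in 4 WT mice, with 21.5% in WT IL1β mouse 3, 10.6% in WT vehicle mouse 2, 4.79% in WT IL1β mouse 4 and 3.73% in WT vehicle mouse 1. These were the mice of the 2 pools that held both sexes, and in the other pools, those of all Tet2-KO mice included, cells given to the wrong mouse could not be seen this way. The cause of these cells was not tested. Without them, 15 of the 16 WT calls of IL1β given below and all 17 Tet2-KO calls were kept, but for the latter, whose pools were of 1 sex, this removed almost no cells of their mice and says little. The 3′ tags of Tet2 lay at 30.3 to 81.8 CPM (UMIs scaled to a total of 1000000) over the 16 mice and were not lower in Tet2-KO cells, but a tag outside the deleted part of a gene checks nothing about the deletion. Cells were assigned to 15 classes by thresholds on marker gene UMIs, and no glycolytic or pentose phosphate gene was a marker. In 6 of these classes, hereafter the main classes, conditions were compared over mice: HSC-like cells, immature myeloid progenitors, granulocyte progenitors, monocytes, basophils and erythroid progenitors of the CFU-E stage. The 8 HSC-like markers summed to between 1174 and 1557 CPM in HSC-like cells of the mice against 74.3 to 125.7 CPM in CFU-E stage cells, a contrast that the gate itself sets, since most of these markers were used in it. In an ungated clustering, HSC-like cells were the leading class of 3 of 37 clusters, where they made up 28.3% to 52.3% of the gated cells, so these clusters were mixed.

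Glycolysis splits glucose into pyruvate in the cytosol, and lactate dehydrogenase turns pyruvate into lactate when it is not passed to the mitochondria. The pentose phosphate pathway branches off after the first step and yields NADPH and ribose phosphate, which cells use for reductive synthesis, the oxidative burst of phagocytes and nucleotide production. Blood stem cells are known for a reliance on glycolysis in their poorly oxygenated niche, and many genes of the pathway are targets of the hypoxia-inducible factor whose alpha subunit is Hif1a.

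Promoters are shown for the genes on which the IL1β comparisons turned: Ldha (lactate dehydrogenase A), Slc16a3 (the lactate exporter MCT4), Hif1a, Tpi1 (triosephosphate isomerase) and Gapdh (glyceraldehyde-3-phosphate dehydrogenase). Each is the stretch of 250 bases before the gene's start in RefSeq (GRCm38.p6), written along the gene's strand. Capitals mark each ACGTG, a form of the core motif that HIF1 dimers are known to recognise, or its reverse complement CACGT. Other forms of the core were not searched for.

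Ldha, chr7:46845554-46845803, plus strand: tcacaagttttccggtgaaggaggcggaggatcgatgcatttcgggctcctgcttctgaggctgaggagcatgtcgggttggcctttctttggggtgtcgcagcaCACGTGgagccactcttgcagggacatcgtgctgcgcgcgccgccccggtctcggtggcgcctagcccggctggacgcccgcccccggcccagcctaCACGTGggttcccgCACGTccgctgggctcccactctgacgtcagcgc

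Slc16a3, chr11:120948817-120949066, plus strand: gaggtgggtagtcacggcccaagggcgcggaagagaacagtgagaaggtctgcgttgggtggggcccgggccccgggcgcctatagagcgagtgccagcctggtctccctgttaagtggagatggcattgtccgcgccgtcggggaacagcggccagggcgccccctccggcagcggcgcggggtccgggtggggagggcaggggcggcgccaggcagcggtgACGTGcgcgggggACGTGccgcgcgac

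Hif1a, chr12:73907617-73907866, plus strand: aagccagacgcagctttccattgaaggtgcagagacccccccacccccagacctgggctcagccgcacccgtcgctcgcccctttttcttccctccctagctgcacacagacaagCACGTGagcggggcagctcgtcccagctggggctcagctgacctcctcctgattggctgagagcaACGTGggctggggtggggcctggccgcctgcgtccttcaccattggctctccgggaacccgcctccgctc

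Tpi1, chr6:124814159-124814408, minus strand: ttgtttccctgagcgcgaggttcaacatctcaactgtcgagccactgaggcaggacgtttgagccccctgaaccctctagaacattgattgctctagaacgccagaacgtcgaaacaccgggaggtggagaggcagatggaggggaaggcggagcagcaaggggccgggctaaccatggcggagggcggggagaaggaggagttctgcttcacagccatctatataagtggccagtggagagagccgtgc

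Gapdh, chr6:125165774-125166023, minus strand: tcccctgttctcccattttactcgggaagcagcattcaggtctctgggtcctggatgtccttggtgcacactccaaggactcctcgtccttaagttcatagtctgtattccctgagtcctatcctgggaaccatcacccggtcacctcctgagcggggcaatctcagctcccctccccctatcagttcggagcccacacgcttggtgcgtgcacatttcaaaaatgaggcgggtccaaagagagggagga

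Counted so that the last base before the start is -1, the capitals began at -145, -48 and -34 in the Ldha window, at -27 and -14 in the Slc16a3 window, and at -135 and -70 in the Hif1a window. Those that read CACGTG (-145 and -48 in Ldha, -135 in Hif1a) hold a match on each strand that overlap by 4 bases. The windows of Tpi1 and Gapdh, as well as a second annotated Ldha start at chr7:46846832-46847081, held no match to these letters. They may still hold other forms of the core. A promoter was in the table for 31 of the 32 genes, Slc2a3 being the exception. Of these, 14 (45.2%) had at least 1 window with the motif on either strand, compared with 4998 of 27025 genes (18.5%) in the whole table. By window, 17 of 45 (37.8%) held it against 5444 of 32851 (16.6%). Since many genes of the pathway are known HIF1 targets, a higher share among them is no independent finding. Windows per gene also differed, at 45 for 31 genes against 32851 for 27025. A match of these letters is a description of the sequence and shows no binding.

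The 32 genes were unevenly spread over the marrow classes, and the lowest mean level among the main classes was that of erythroid progenitors. As a description, the mean over the 32 genes of log2(CPM + 1) was 4.69 ± 0.13 (SD over mice) in CFU-E stage cells, 5.17 ± 0.43 in HSC-like cells, 5.34 ± 0.28 in immature myeloid progenitors, 5.36 ± 0.25 in monocytes, 5.49 ± 0.27 in basophils and 5.71 ± 0.08 in granulocyte progenitors. Apart from CFU-E stage and HSC-like cells, neighbours in this order differed by less than the larger of their SDs. Over all 15 classes the range ran from 3.92 ± 0.53 in Plasma-cell-like cells to the granulocyte progenitors. Depth differed between classes, with medians per mouse of 2097 to 3491 UMIs in HSC-like cells and 8660 to 14664.5 in CFU-E stage cells, and its part in these levels was not tested.

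**Figure D1:**
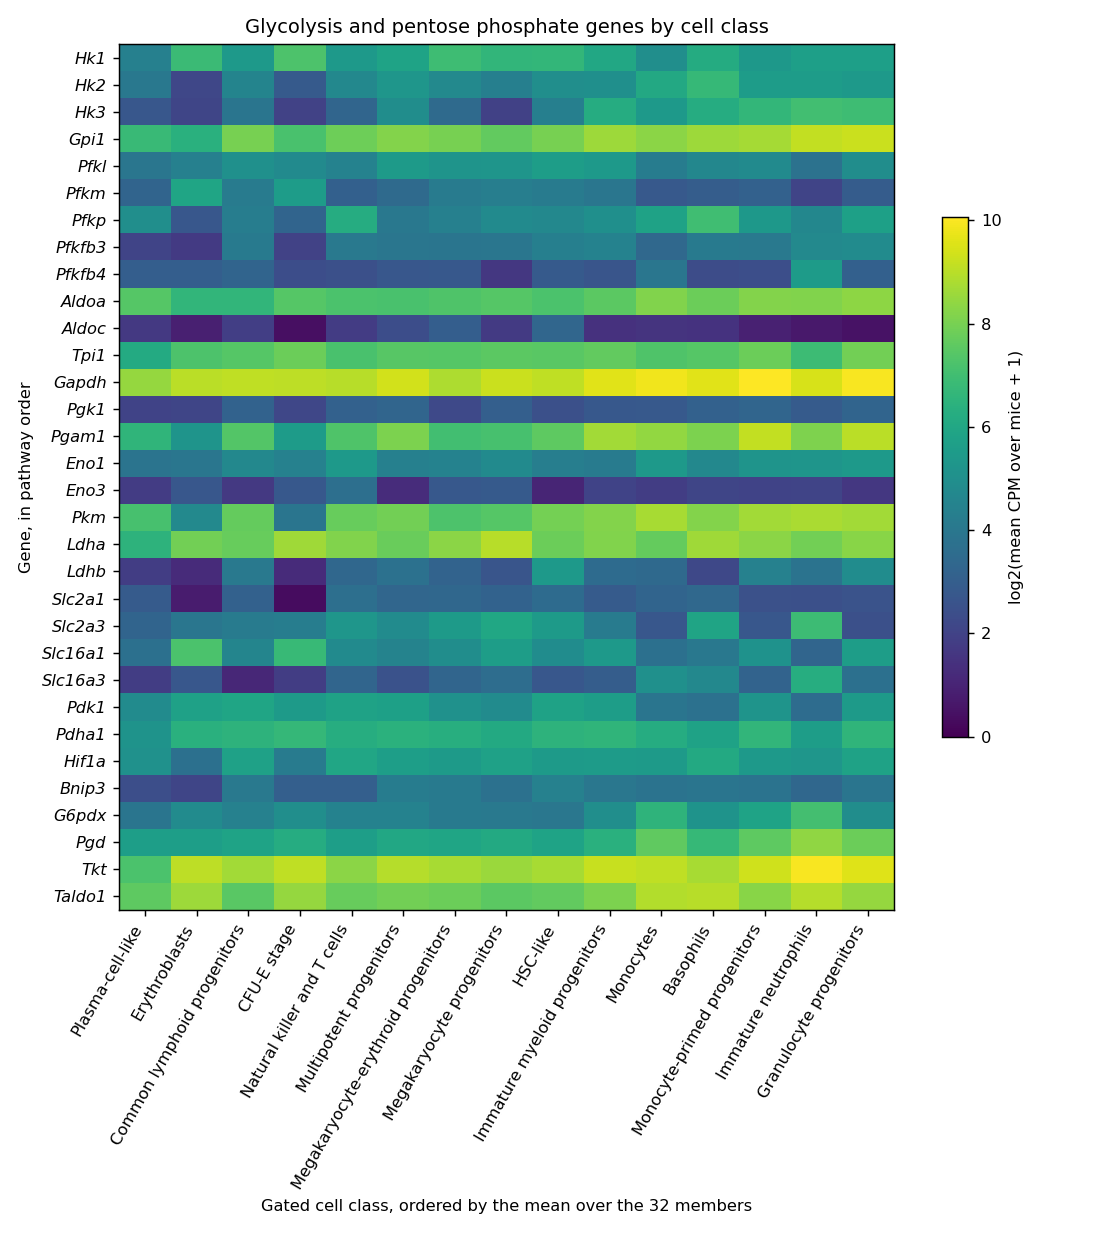
Mean level of each of the 32 genes (rows, ordered by role) in each of the 15 gated classes (columns, ordered by the mean over the genes), as log2(mean CPM + 1) over mice on a colour scale. Gapdh, Tkt and Gpi1 are high nearly throughout, whereas Hk1, Hk2, Hk3, Pfkm, Pfkp and Pkm differ between the erythroid and the myeloid columns.

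Each of the 5 other main classes was compared with HSC-like cells of the same mice (edgeR, mouse as a block, Benjamini-Hochberg over all genes tested, adjusted p under 0.05). Of 106 gene-by-class pairs tested, 89 passed, 69 higher and 20 lower than in HSC-like cells. The filter on low counts keeps a gene with enough UMIs in either class. Pfkm was thus tested only in CFU-E stage cells and Pfkfb3 only in granulocyte progenitors, where each was higher. Slc16a1 was not tested in monocytes or basophils, G6pdx not in immature myeloid progenitors, and Hk3 not in CFU-E stage cells. In the classes where they were tested, these genes too were all higher. Pfkp was likewise not tested in CFU-E stage cells. For such genes the filter favours a higher call, and they enter the split of directions and the medians below. Immature myeloid progenitors had 12 higher and 2 lower of 20 tested, granulocyte progenitors 19 and 3 of 25, monocytes 13 and 3 of 20, basophils 14 and 4 of 20, and CFU-E stage cells 11 and 8 of 21. Genes of any kind often differed between these classes: the share of all tested genes that passed was 48% for immature myeloid progenitors, 69.7% for granulocyte progenitors, 70.3% for monocytes, 61.7% for basophils and 76.8% for CFU-E stage cells. The median log2 fold change of the pathway genes was 0.37, 1.03, 0.86, 0.64 and 0.19 in the same order, against medians of all tested genes of 0.00, 0.05, -0.02, -0.03 and 0.02.

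Glucose enters blood cells chiefly through Slc2a1 (GLUT1) and Slc2a3 (GLUT3). Slc2a1 was low in all main classes, at 0.3 to 10.5 CPM. Slc2a3 was at 44.3 ± 24.7 CPM in HSC-like cells and 57.6 ± 20.4 CPM in basophils but at 4.5 ± 1.4 CPM in granulocyte progenitors, a log2 fold change against HSC-like cells of -3.15 ± 0.18 (SE, adjusted p = 1.9e-20). It was also lower in immature myeloid progenitors (-1.54) and CFU-E stage cells (-1.36). Among all classes it was highest in immature neutrophils, at 117.2 ± 34.8 CPM.

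Hexokinases trap glucose as glucose 6-phosphate, and the lineages differed in the isozyme used. Hk1, the widely expressed form, made up 94.4% ± 2.4 (SD, n = 16 mice) of hexokinase UMIs in CFU-E stage cells and 63.3% ± 10.9 (n = 13) in HSC-like cells, but 23.7% ± 1.8 in granulocyte progenitors. Hk3, a myeloid form, made up 56.2% ± 3.6 there and 1.8% in CFU-E stage cells. Its level rose from 19.5 CPM in HSC-like cells to 120.0 ± 18.2 CPM in granulocyte progenitors, a log2 fold change of 2.65 ± 0.11 (adjusted p = 2.1e-24), and was also higher in basophils (1.81), immature myeloid progenitors (1.67) and monocytes (0.85). Hk2, an inducible form, supplied 47.0% ± 5.2 (n = 14) of hexokinase UMIs in monocytes and 42.4% ± 10.2 in basophils, where it was at 107.2 ± 27.5 CPM and 1.75 higher than in HSC-like cells on the log2 scale. Shares were taken only in mice with at least 10 UMIs of the step.

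Phosphofructokinase, the committed step of glycolysis, switched in the same way between its liver (Pfkl), muscle (Pfkm) and platelet (Pfkp) forms. Pfkl supplied most of it in HSC-like cells, at 53.3% ± 7.4 (n = 12). Its share was alike in CFU-E stage cells (33.6%) and granulocyte progenitors (33.5%). Pfkm supplied 56.3% ± 5.0 in CFU-E stage cells and 7.6% ± 1.3 in granulocyte progenitors, and its level in CFU-E stage cells (46.5 ± 10.7 CPM) was 1.29 ± 0.15 higher than in HSC-like cells (log2). Pfkp supplied 80.1% ± 3.8 (n = 15) in basophils, 68.8% ± 8.6 in monocytes, 58.9% ± 3.9 in granulocyte progenitors and 10.1% in CFU-E stage cells. In basophils it reached 124.3 ± 24.05 CPM, a log2 fold change of 2.47 ± 0.12 (adjusted p = 5.7e-20). Pfkfb4, which makes and degrades the activator fructose 2,6-bisphosphate, was highest among the classes in immature neutrophils (44.6 ± 10.6 CPM).

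**Figure D2:**
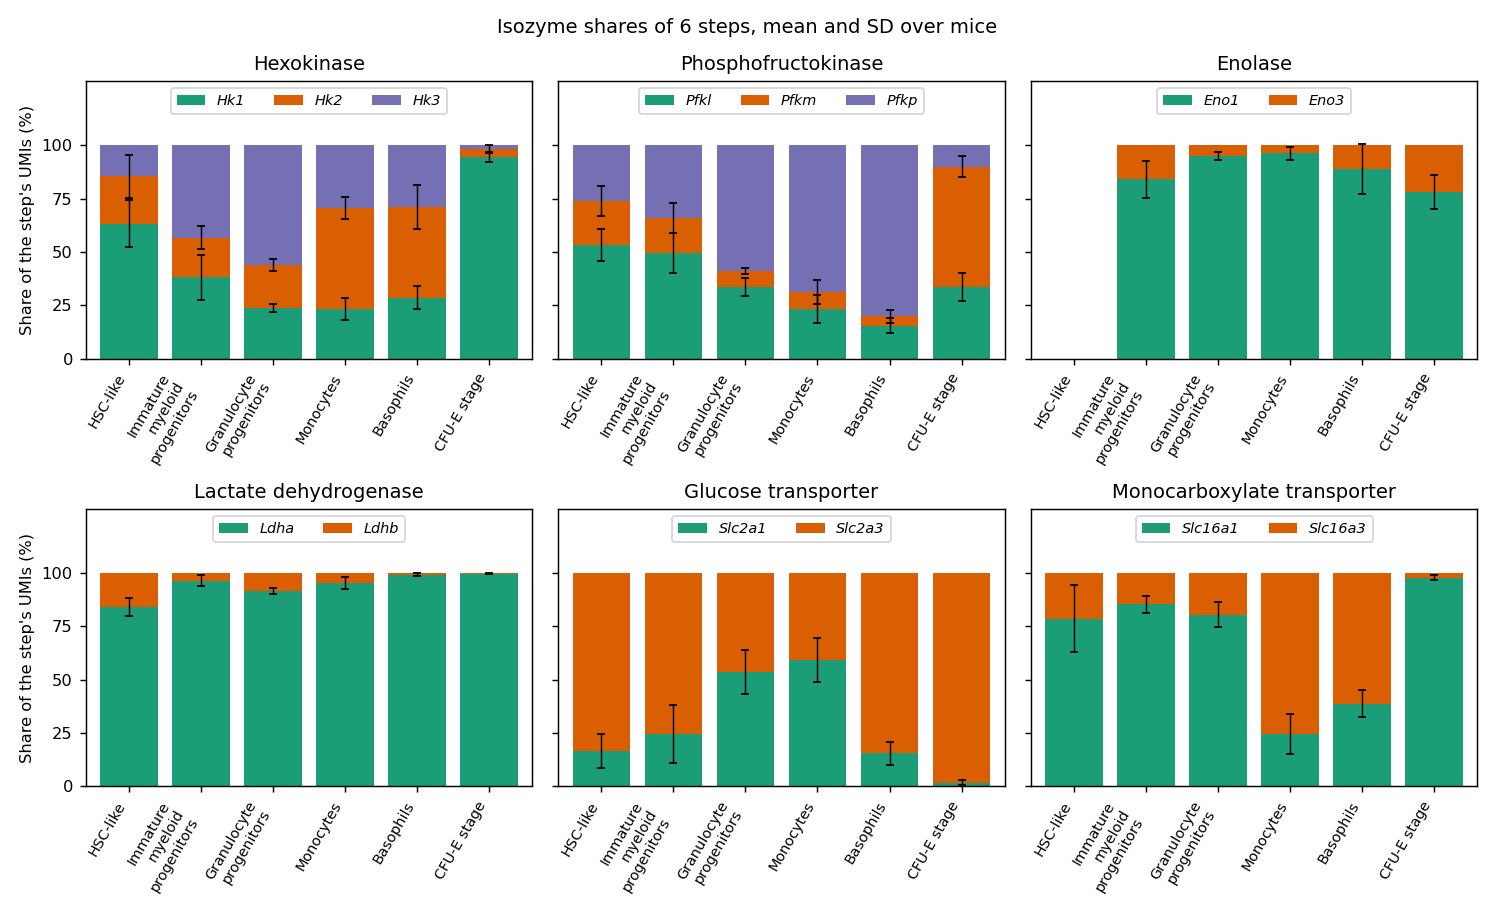
Share of each isozyme in the UMIs of its step (y axis, percent, stacked means over mice, error bars 1 SD on the lower segments) in the 6 main classes (x axis), 1 panel for each of 6 steps. Hk1 and Pfkm fill most of the CFU-E stage bars (94.4% and 56.3%), and Hk3 and Pfkp most of the granulocyte progenitor bars (56.2% and 58.9%). The enolase bar of HSC-like cells is left out for lack of UMIs.

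In the payoff phase of glycolysis, Gapdh was among the most abundant of the 32 genes in each main class, from 536.8 CPM in CFU-E stage cells to 1007 ± 178.0 CPM in granulocyte progenitors. The classes differed more at the steps near pyruvate. Pgam1, a phosphoglycerate mutase, was at 187.4 ± 37.0 CPM in HSC-like cells and 524.0 CPM in granulocyte progenitors but 44.5 ± 11.6 CPM in CFU-E stage cells, 2.03 lower on the log2 scale (log2 fold change -2.03 ± 0.10, adjusted p = 5.6e-21). Pkm, the muscle-type pyruvate kinase that makes pyruvate and ATP, fell from 246.9 ± 63.5 CPM to 14.2 ± 6.7 CPM in the same comparison, with a log2 fold change of -4.25 ± 0.11 (adjusted p = 8.8e-29), whereas it rose by 1.02 in granulocyte progenitors and by 0.92 in monocytes. Pklr, the other pyruvate kinase gene, is not among the 32 genes and its level is not given, so these values do not describe the whole step. Pgk1, which makes ATP at the first payoff step, was listed at 3.5 to 8.4 CPM in all main classes. Gapdh, Pgk1, Ldha, Tpi1, Eno1, Aldoa and Pgam1 have processed pseudogenes of near-identical sequence, so their counts may be partly lost or shared and their levels are uncertain.

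Lactate dehydrogenase and lactate transport separated the classes further. Ldha was higher than in HSC-like cells (222.5 CPM) in basophils (395.7 CPM, log2 fold change 0.97), CFU-E stage cells (397.8 CPM, 0.89), granulocyte progenitors (0.83) and immature myeloid progenitors (0.45), and among all classes it was highest in megakaryocyte progenitors at 506.3 ± 108.0 CPM. Ldhb, the subunit that favours the conversion of lactate to pyruvate, made up 16.0% ± 4.1 (n = 13) of lactate dehydrogenase UMIs in HSC-like cells. Its share was 8.6% ± 1.4 in granulocyte progenitors and 0.3% in CFU-E stage cells. In CFU-E stage cells its log2 fold change was -4.89 ± 0.25 (adjusted p = 9.7e-20). In granulocyte progenitors its level did not pass (-0.22, adjusted p = 0.11), and in the other main classes it was not tested. The transporter Slc16a1 (MCT1) supplied 97.8% ± 1.2 of the summed Slc16a1 and Slc16a3 UMIs in CFU-E stage cells, at 109.8 ± 15.4 CPM, whereas the exporter Slc16a3 supplied 75.6% ± 9.3 in monocytes and 61.3% ± 6.3 in basophils. Slc16a1 was 2.07 ± 0.12 higher in CFU-E stage than in HSC-like cells (log2, adjusted p = 9.0e-18). Pdk1, a kinase that shuts pyruvate out of the mitochondrial dehydrogenase, was at 54.9 CPM in HSC-like cells and was lower in basophils (12.4 CPM, log2 fold change -2.06 ± 0.17, adjusted p = 1.5e-13) and monocytes (14.1 CPM, -1.91).

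Among the pentose phosphate enzymes, G6pdx, the X-linked gate enzyme that yields NADPH, was at 15.01 CPM in HSC-like cells and 93.1 ± 17.8 CPM in monocytes, a log2 fold change of 2.95 ± 0.14 (adjusted p = 2.8e-20), and at 133.2 ± 32.9 CPM in immature neutrophils. Pgd, which yields the second NADPH, was at 55.8 CPM in HSC-like cells and 225.0 ± 30.5 CPM in granulocyte progenitors (2.16 ± 0.09, adjusted p = 5.0e-25), 192.3 CPM in monocytes and 338.1 ± 82.2 CPM in immature neutrophils. In the non-oxidative arm, which returns pentoses to glycolysis, transketolase (Tkt) ranged from 431.0 to 769.1 CPM over the main classes and reached 997.7 ± 215.6 CPM in immature neutrophils. Transaldolase (Taldo1) was higher than in HSC-like cells in each of the 5 other classes, by 1.56 in basophils, 1.45 in monocytes, 1.21 in granulocyte progenitors, 0.96 in CFU-E stage cells and 0.62 in immature myeloid progenitors (log2). Hif1a was at 43.7 to 68.0 CPM in the myeloid and HSC-like classes and 17.2 CPM in CFU-E stage cells.

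The 5 weeks of IL1β changed a minority of these genes, and those lower with IL1β included enzymes of the aldolase-to-lactate stretch in several classes, while Hif1a and Slc16a3 were higher in granulocyte progenitors. In WT mice, 16 of 154 gene-by-class pairs passed the test over the main classes, 6 higher and 10 lower, or 10.4% against a background of 12.8% of all tested gene-by-class pairs. In Tet2-KO mice, 17 of 154 passed, 6 higher and 11 lower, or 11.04% against 16.3%. These shares were no higher than the background. Over all genes, too, lower calls were the more numerous, with 2659 pairs higher and 3579 lower in WT. In Tet2-KO mice 3430 were higher and 4527 lower. A further 38 pairs had too few UMIs to be tested. The median log2 fold change was -0.03 for the pathway genes and 0.03 for all genes in WT mice, and -0.05 and 0.02 in Tet2-KO mice. The split of directions depended on the scaling: TMM set the median of all genes near 0, and with plain library totals, which raised the medians of all genes by 0.06 to 0.18 in the main classes, 22 pairs passed in WT (19 higher, 3 lower) and 27 in Tet2-KO mice (18 higher, 9 lower), with no pair reversed and 24 of the 33 calls kept.

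Of the called pairs, 8 passed in both genotypes with the same sign, which is 50.0% of those in WT and 47.1% of those in Tet2-KO mice. Over all genes the same shares were 67.1% and 52.6%. The WT count was 8 without WT vehicle mouse 1, 10 without WT vehicle mouse 4 and 5 without WT IL1β mouse 3. The Tet2-KO count was 29 without Tet2-KO vehicle mouse 1, 11 without mouse 3 and 10 without mouse 4 of that group. With the library of 2 mice as the replicate, 2 pairs passed in WT and 9 in Tet2-KO mice.

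**Figure D3:**
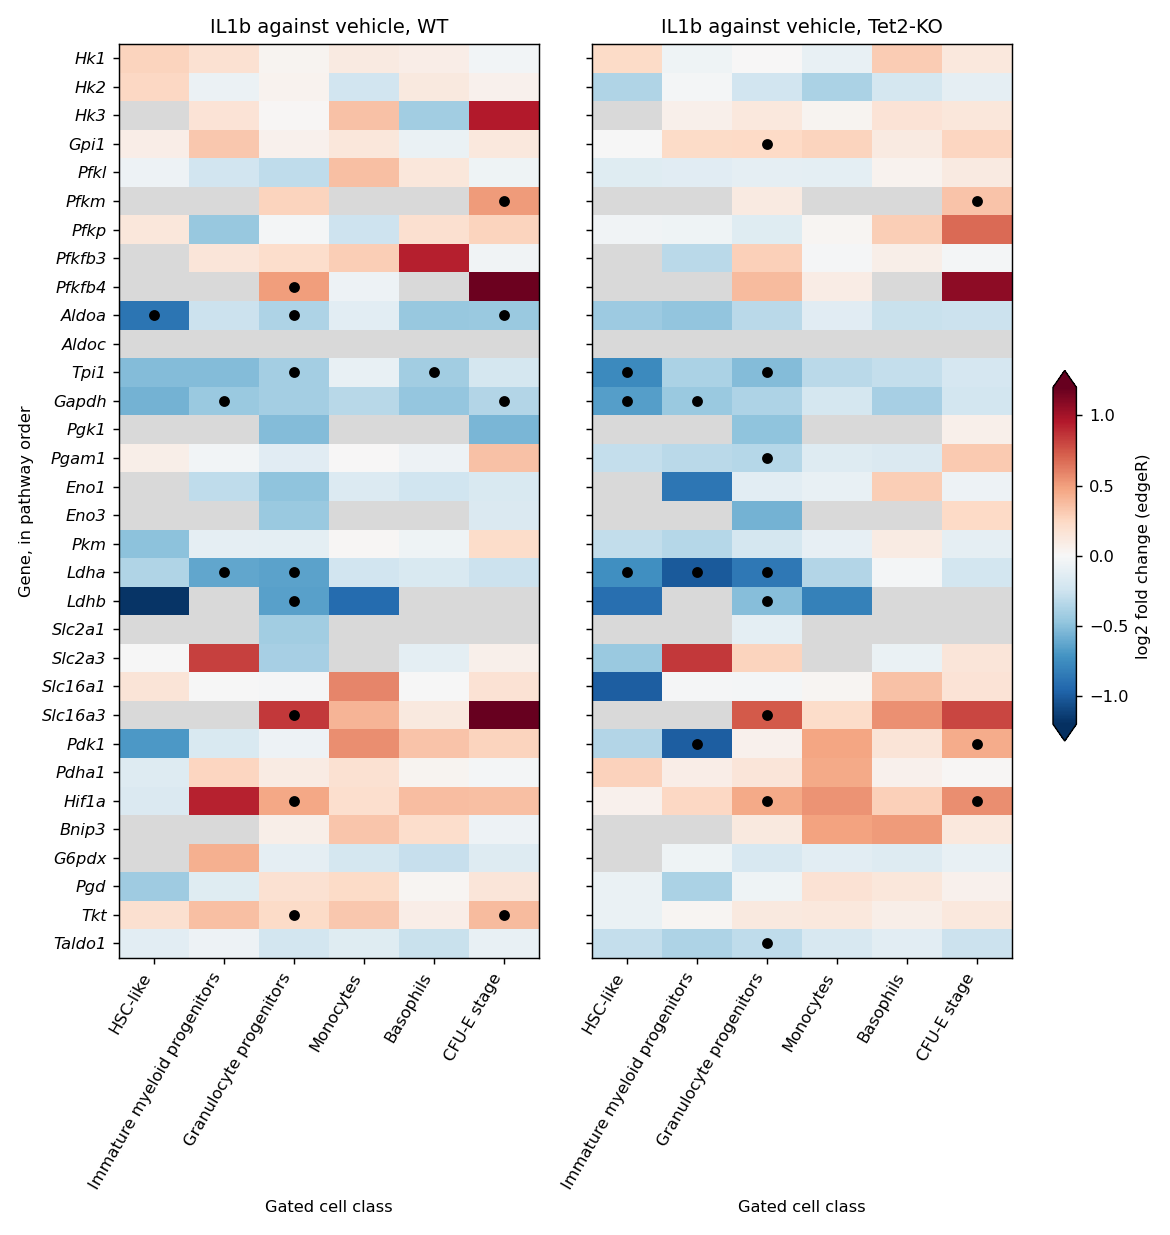
Log2 fold change of IL1β against vehicle for the 32 genes (rows) in the 6 main classes (columns), in WT (left) and Tet2-KO mice (right), on a colour scale of ±1.2, with a black dot on each pair that passed the test and grey where a gene was not tested. The dots gather in the granulocyte progenitor column (8 in each genotype) and on the rows of Ldha, Gapdh and Tpi1, all of them lower, while monocytes have none.

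Granulocyte progenitors held the most calls. There, 4 of 31 genes were higher and 4 lower in WT (background 27%), against 3 higher and 5 lower in the knockout (background 37.5%). In CFU-E stage cells 2 were higher and 2 lower of 29 in WT (background 18.6%), and 3 were higher in Tet2-KO mice (background 16.9%). Immature myeloid progenitors had 2 lower of 23 in WT (background 7.45%) and 3 lower in Tet2-KO mice (background 15.8%), and HSC-like cells 1 lower of 20 (background 4.65%) and 3 lower (background 8.28%). Basophils had 1 lower of 25 in WT (background 6.06%) and 0 in Tet2-KO mice (background 6.42%), with 3 at an unadjusted p under 0.05. In monocytes edgeR called 0 of 26 in both genotypes (backgrounds 4.27% and 4.13%), with 2 and 6 at an unadjusted p under 0.05.

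Some marker sums moved with IL1β in the same cells. In granulocyte progenitors of WT mice the sum of their own markers was 20667 to 23374 CPM with vehicle and 15519 to 17107 CPM with IL1β, the S and G2M genes summed to 2821 to 2947 CPM and 3218 to 3664 CPM, and 4 macrophage markers to 17.9 to 30.4 CPM and 57.1 to 116.5 CPM. In those of Tet2-KO mice the own markers summed to 21175 to 24397 CPM and 15937 to 21013 CPM and the macrophage markers to 4.85 to 24.96 CPM and 45.4 to 70.5 CPM, whereas the S and G2M sums overlapped. In immature myeloid progenitors the sums of their own markers and of the S and G2M genes overlapped between vehicle and IL1β in both genotypes. In those of Tet2-KO mice 2 multipotent progenitor markers summed to 544 to 606 CPM with vehicle and 609.8 to 771 CPM with IL1β, 5 basophil markers to 137 to 241 CPM and 244 to 323 CPM, and 4 plasmacytoid dendritic cell markers, 2 of them at 0 with IL1β, to 172 to 197 CPM and 85.8 to 139.6 CPM. In those of WT mice 2 plasma cell markers summed to 29.2 to 44.5 CPM and 53.2 to 86.7 CPM. In HSC-like cells of WT mice the S and G2M genes summed to 2857 to 3155 CPM with vehicle and 3643 to 5218 CPM with IL1β, and a monocyte list to 69.1 to 116.2 CPM and 198.0 to 536.8 CPM. Both sums overlapped in HSC-like cells of Tet2-KO mice, where an erythroblast list summed to 180.5 to 243 CPM and 253 to 1004 CPM. In CFU-E stage cells of WT mice the S and G2M sum was 4008 to 4196 CPM and 4199 to 5159 CPM, and in basophils 3639 to 4078 CPM and 4411 to 5153 CPM, with overlap in both classes of Tet2-KO mice. Marker lists of all classes were looked at, and mainly those whose mice separated are given here, without a test. Of so many lists some would separate by chance, and some were barely apart, as at 4196 against 4199 CPM in WT CFU-E stage cells. The sums are plain CPM, on which the medians of all genes also rose with IL1β. In the TMM-scaled tests given below, S phase and G2M genes went both ways in WT granulocyte progenitors and CFU-E stage cells. The part of these sums in the changes described next was not tested.

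Ldha, which turns pyruvate into lactate, made up 5 of the 33 called pairs, the most of any of the genes, all of them lower. In immature myeloid progenitors its level was 355, 343, 370.0 and 369 CPM in WT vehicle mice 1 to 4 and 258, 242, 203 and 233 CPM in WT IL1β mice 1 to 4 (CPM here and for the following mouse values is of TMM-scaled totals). In Tet2-KO mice it was 346, 409.8, 410.3 and 452 CPM with vehicle and 124, 221, 234 and 202 CPM with IL1β. Vehicle and IL1β mice did not overlap in either genotype. The log2 fold change was -0.63 ± 0.16 (SE, adjusted p = 0.011) in WT and -1.01 ± 0.15 (adjusted p = 4.4e-05) in Tet2-KO mice. In WT the call was lost without WT IL1β mouse 3 (adjusted p = 0.098), with stricter gates and with the stricter cell filter, and both calls were lost when classes came from clusters.

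In granulocyte progenitors Ldha was at 468, 286, 383 and 359 CPM in WT vehicle mice and 325, 247, 183 and 207 CPM in WT IL1β mice. These overlapped, since IL1β mouse 1 lay above vehicle mouse 2. Tet2-KO mice did not overlap, at 362, 381, 438 and 502 CPM with vehicle and 191, 213, 247 and 277 CPM with IL1β. The log2 fold changes were -0.64 ± 0.16 (adjusted p = 0.0063) and -0.86 ± 0.16 (adjusted p = 0.000345). In HSC-like cells Ldha passed in Tet2-KO mice, where vehicle mice had 279.6, 319, 273 and 428 CPM and IL1β mice 249.8, 173, 191 and 203 CPM (log2 fold change -0.73 ± 0.19, adjusted p = 0.011). This call was lost without Tet2-KO vehicle mouse 4 (adjusted p = 0.094) or IL1β mouse 2 (0.065), and with stricter gates or the stricter cell filter. In WT HSC-like cells the value was -0.36 (adjusted p = 0.37).

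Ldhb, the other subunit, was also lower in granulocyte progenitors. WT vehicle mice had 45.1, 33.5, 27.5 and 30.1 CPM and WT IL1β mice 20.0, 23.5, 21.7 and 20.8 CPM, with no overlap. Tet2-KO mice had 34.0, 27.4, 37.0 and 44.6 CPM with vehicle and 20.1, 23.5, 29.4 and 26.3 CPM with IL1β, with 1 IL1β mouse above the lowest vehicle mouse. The log2 fold changes were -0.65 ± 0.16 (adjusted p = 0.0058) and -0.51 ± 0.14 (adjusted p = 0.0081), and the WT call was lost without WT vehicle mouse 1 (adjusted p = 0.0505).

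The exporter Slc16a3 was higher in the same cells. Its level was 9.7, 6.0, 7.0 and 11.3 CPM in WT vehicle mice and 16.5, 15.5, 17.6 and 13.5 CPM in WT IL1β mice, with no overlap. WT vehicle mouse 2 had 887523 UMIs in this class, so its Slc16a3 value rests on few UMIs. In Tet2-KO mice Slc16a3 was at 11.6, 12.3, 5.9 and 5.0 CPM with vehicle and 13.7, 12.1, 16.5 and 15.1 CPM with IL1β, so that vehicle mouse 2 lay above IL1β mouse 2. Log2 fold changes were 0.85 ± 0.23 (adjusted p = 0.0097) and 0.73 ± 0.21 (adjusted p = 0.0080). The WT call was lost without WT vehicle mouse 3 (adjusted p = 0.057) and with the stricter cell filter, and both calls were lost when classes came from clusters.

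**Figure D4:**
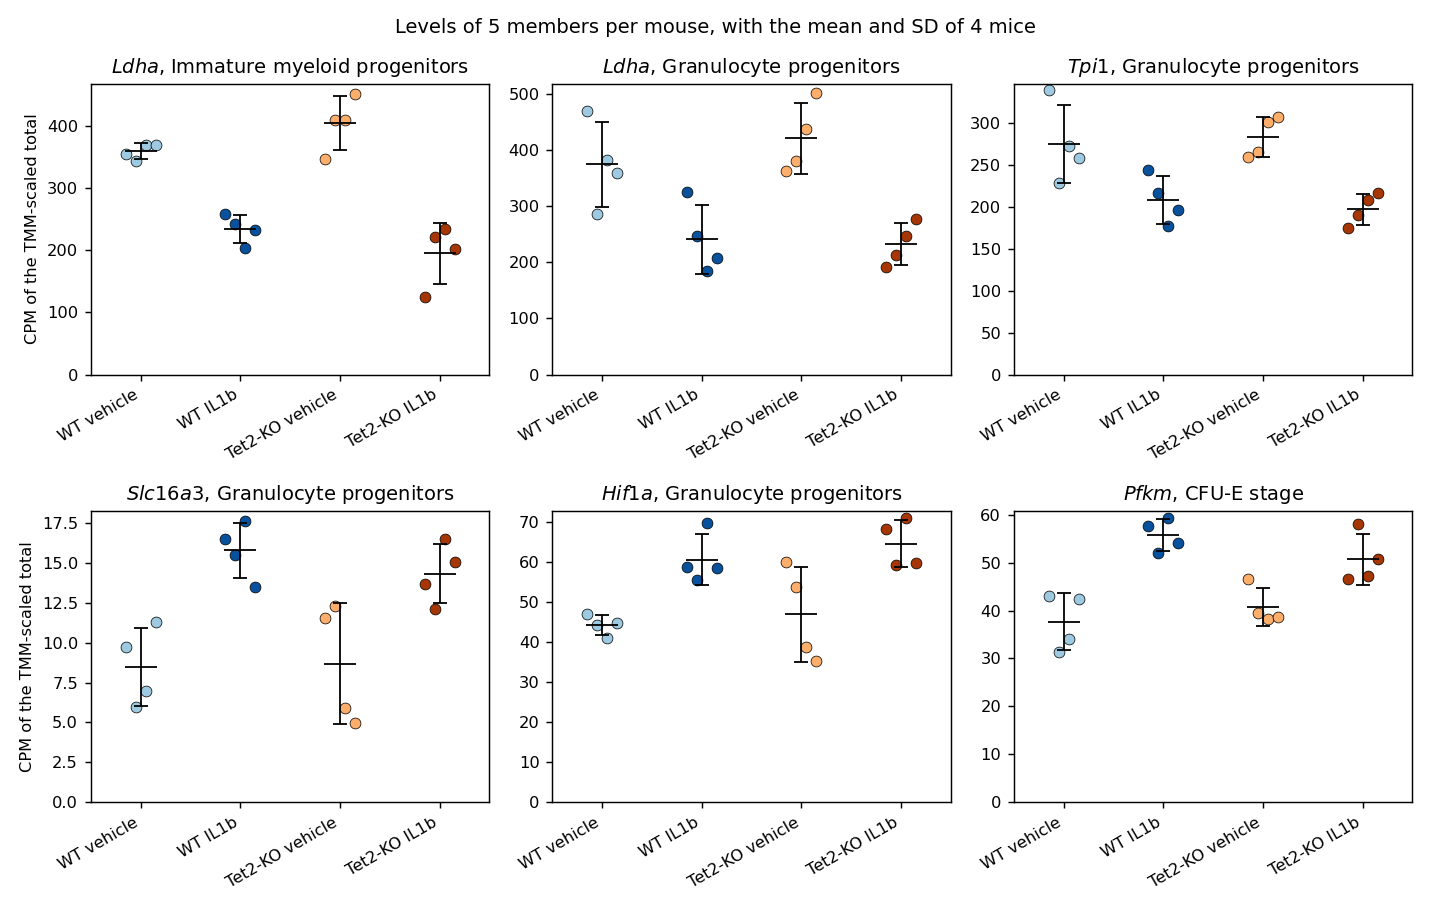
Level per mouse (points, y axis in CPM of TMM-scaled totals) in the 4 groups of 4 mice, for Ldha in immature myeloid and granulocyte progenitors, Tpi1, Slc16a3 and Hif1a in granulocyte progenitors and Pfkm in CFU-E stage cells. Ldha and Tpi1 sit lower and Slc16a3, Hif1a and Pfkm higher with IL1β in both genotypes, with overlap of single mice in some panels, as for Ldha in WT granulocyte progenitors (325 CPM with IL1β against 286 CPM with vehicle).

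Upstream of pyruvate, Tpi1, which interconverts the triose phosphates, was lower in 3 classes. In granulocyte progenitors WT vehicle mice had 339, 229, 274 and 259 CPM and WT IL1β mice 244, 217, 177 and 196 CPM, with IL1β mouse 1 above vehicle mouse 2. Tet2-KO vehicle mice had 260.3, 266, 302 and 307 CPM, all above the 175, 190.2, 208 and 216 CPM of Tet2-KO IL1β mice. The log2 fold changes were -0.41 ± 0.12 (adjusted p = 0.013) and -0.52 ± 0.11 (adjusted p = 0.0013). The WT call was lost without WT vehicle mouse 1 (adjusted p = 0.080) or WT IL1β mouse 3 (0.058), whereas the Tet2-KO call held under every setting tried. In HSC-like cells of Tet2-KO mice Tpi1 was at 208, 299.6, 209.97 and 269.8 CPM with vehicle and 203, 136, 145 and 123 CPM with IL1β, without overlap (log2 fold change -0.76 ± 0.19, adjusted p = 0.0098), a call lost with stricter gates or the stricter cell filter. WT HSC-like cells had a value of -0.52 (adjusted p = 0.153). In WT basophils it was lower by a log2 fold change of -0.41 (adjusted p = 0.033), from 220.4, 172, 172 and 186 CPM to 143, 142, 139 and 149 CPM, a call lost without any 1 of the 4 IL1β mice or without vehicle mouse 1 or 4 (adjusted p = 0.056 to 0.19).

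Gapdh, the next enzyme, was lower in immature myeloid progenitors in both genotypes, each with a log2 fold change of -0.45 ± 0.14 (adjusted p = 0.045 in WT and 0.026 in Tet2-KO mice). WT vehicle mice had 1022, 839, 955 and 965 CPM and WT IL1β mice 795, 791, 578 and 617 CPM. Tet2-KO mice had 833, 778, 1024 and 1082 CPM with vehicle and 615, 583, 737 and 816 CPM with IL1β, which overlapped by 1 mouse. The WT call held in 5 of 16 fits that left out 1 mouse, with an adjusted p of 0.25 without WT IL1β mouse 3, and the Tet2-KO call was lost without vehicle mouse 3 or 4 or IL1β mouse 1 or 2 of that genotype (adjusted p = 0.092 to 0.14). Gapdh also fell in Tet2-KO HSC-like cells, from 585, 841, 733 and 779 CPM to 406, 441, 503 and 475 CPM (log2 fold change -0.66 ± 0.17, adjusted p = 0.012), a call lost with stricter gates, the stricter cell filter or classes from clusters, and in WT CFU-E stage cells, from 618, 579, 543 and 600.1 CPM to 487, 516, 407 and 418 CPM (-0.36 ± 0.10, adjusted p = 0.016). The latter was lost without WT vehicle mouse 1 (adjusted p = 0.057) or WT IL1β mouse 3 (0.066).

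Aldoa, the aldolase that makes the triose phosphates, passed in 3 classes of WT mice and in none of Tet2-KO mice, a difference for which the interaction was not called. In WT granulocyte progenitors it was at 364, 357, 361 and 349 CPM with vehicle and 328, 299.9, 261 and 213 CPM with IL1β (log2 fold change -0.37, adjusted p = 0.042), and in WT CFU-E stage cells at 183, 199.6, 196 and 199 CPM and 141, 152, 127 and 157 CPM (-0.45, adjusted p = 0.020). Neither overlapped. In WT HSC-like cells 145.8, 120.5, 212 and 191 CPM stood against 93.2, 156, 100.5 and 79.7 CPM, with IL1β mouse 2 among the vehicle values (-0.87 ± 0.24, adjusted p = 0.027). IL1β mouse 4 had 10 cells and 33535 UMIs there, so its Aldoa value rests on few UMIs. The granulocyte call was lost without any 1 WT vehicle mouse or WT IL1β mouse 3 or 4 (adjusted p = 0.068 to 0.13), the CFU-E call without WT vehicle mouse 4 or IL1β mouse 3 (0.053 and 0.083), and the HSC-like call without WT vehicle mouse 3 or 4 or IL1β mouse 1 or 3 (0.083 to 0.17). Pgam1 was lower in Tet2-KO granulocyte progenitors, from 562, 551, 644 and 661 CPM to 468, 444, 494 and 501 CPM, without overlap (-0.34 ± 0.08, adjusted p = 0.0027).

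With plain library totals the WT calls of Aldoa in all 3 classes, of Gapdh in immature myeloid progenitors and CFU-E stage cells, and of Tpi1 in granulocyte progenitors and basophils were lost, as were the Tet2-KO calls of Gapdh in immature myeloid progenitors and Taldo1 in granulocyte progenitors. The calls of Ldha, Slc16a3 and Hif1a were kept.

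At the phosphofructokinase step, Pfkm, the main form of erythroid progenitors, was higher with IL1β in CFU-E stage cells of both genotypes. WT vehicle mice had 43.0, 31.4, 34.0 and 42.4 CPM and WT IL1β mice 57.6, 52.1, 59.3 and 54.0 CPM, without overlap. Tet2-KO mice had 46.6, 39.6, 38.2 and 38.7 CPM with vehicle and 46.6, 58.2, 47.3 and 50.8 CPM with IL1β, so that the highest vehicle mouse equalled the lowest IL1β mouse to the first decimal. The log2 fold changes were 0.51 ± 0.11 (adjusted p = 0.0029) and 0.35 ± 0.11 (adjusted p = 0.034). The WT call held under every setting tried, and the Tet2-KO call was lost without vehicle mouse 2, 3 or 4 or IL1β mouse 2 or 4 of that genotype (adjusted p = 0.062 to 0.17). In granulocyte progenitors Pfkfb4 was higher in WT mice by 0.50 ± 0.19 (adjusted p = 0.049), from 5.8, 7.2, 6.4 and 6.6 CPM to 9.9, 7.4, 10.8 and 6.3 CPM with overlap, a call that held in 3 of 16 fits that left out 1 mouse. Gpi1, the isomerase before phosphofructokinase, was higher in Tet2-KO mice by 0.24 ± 0.09 (adjusted p = 0.034), from 565, 546, 569.9 and 574 CPM to 679.97, 591, 706 and 689 CPM, and lost the call without any 1 Tet2-KO vehicle mouse or IL1β mouse 1, 3 or 4 (adjusted p = 0.053 to 0.10).

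In the pentose phosphate pathway Tkt was higher with IL1β in WT CFU-E stage cells, from 492, 412, 471 and 508 CPM to 608, 607, 617 and 640.2 CPM (log2 fold change 0.38 ± 0.08, adjusted p = 0.0019), without overlap. The Tet2-KO value was 0.13 (adjusted p = 0.29). In WT granulocyte progenitors it was also higher, from 699, 683, 735 and 718 CPM to 852, 831, 869.7 and 779 CPM (0.23 ± 0.08, adjusted p = 0.029), a call lost without WT vehicle mouse 1, 2 or 4 or IL1β mouse 1, 2 or 3 (adjusted p = 0.054 to 0.082). Taldo1 was lower in Tet2-KO granulocyte progenitors, from 347, 324, 454 and 426 CPM to 317, 266, 334 and 337 CPM with overlap (-0.31 ± 0.11, adjusted p = 0.031), and lost the call without vehicle mouse 3 or 4 or IL1β mouse 1 or 2 of that genotype (0.058 to 0.14). G6pdx and Pgd passed in no main class.

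Hif1a, the oxygen-regulated subunit of HIF1, was higher in granulocyte progenitors. WT vehicle mice had 47.0, 44.3, 40.9 and 44.7 CPM, all below the 58.6, 55.4, 69.7 and 58.5 CPM of WT IL1β mice. Tet2-KO mice had 59.9, 53.7, 38.7 and 35.3 CPM with vehicle and 68.3, 59.3, 70.8 and 59.7 CPM with IL1β, where vehicle mouse 1 lay just above IL1β mice 2 and 4. The log2 fold changes were 0.46 ± 0.14 (adjusted p = 0.017) and 0.45 ± 0.13 (adjusted p = 0.0077), and the WT call was lost without WT vehicle mouse 3 (adjusted p = 0.065) or WT IL1β mouse 3 (0.072). In CFU-E stage cells of Tet2-KO mice Hif1a was also higher (0.56 ± 0.17, adjusted p = 0.023), from 13.3, 11.3, 12.98 and 13.9 CPM to 15.5, 18.5, 18.1 and 22.5 CPM, and in WT mice the value was 0.36 (adjusted p = 0.157). The Tet2-KO call was lost without vehicle mouse 3 or 4 or IL1β mouse 4 (adjusted p = 0.061 to 0.13). These are transcript levels, and HIF1 is controlled mainly through the stability of the protein.

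Pdk1 moved in opposite directions in 2 classes of Tet2-KO mice. In immature myeloid progenitors it was at 64.5, 100.4, 55.9 and 63.9 CPM with vehicle and 19.6, 23.3, 50.4 and 40.9 CPM with IL1β, without overlap (log2 fold change -0.99 ± 0.26, adjusted p = 0.0089). IL1β mouse 1 had 21 cells and 151564 UMIs in this class, so its Pdk1 value rests on few UMIs. In CFU-E stage cells Pdk1 was at 47.4, 37.7, 29.8 and 39.6 CPM with vehicle and 39.9, 49.6, 59.0 and 52.1 CPM with IL1β, with overlap (0.44 ± 0.14, adjusted p = 0.031). The former call was lost without Tet2-KO IL1β mouse 2 (adjusted p = 0.11) and the latter without vehicle mouse 2, 3 or 4 or IL1β mouse 2, 3 or 4 (0.051 to 0.20). The WT value in immature myeloid progenitors was -0.18 (adjusted p = 0.76).

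Other calls were also lost when cells were chosen differently. With stricter gates these were Aldoa in WT HSC-like cells and granulocyte progenitors, Gapdh in immature myeloid progenitors of both genotypes, Pdk1 in Tet2-KO immature myeloid progenitors, Pfkfb4 in WT granulocyte progenitors and Tpi1 in WT basophils. With classes from clusters they were the same calls without Aldoa in granulocyte progenitors, together with Tkt (WT), Gpi1 and Hif1a (both Tet2-KO) in granulocyte progenitors. With the stricter cell filter they were Aldoa in WT HSC-like cells, Gapdh and Pdk1 in immature myeloid progenitors, Tkt in WT granulocyte progenitors, and Gapdh (WT), Pdk1, Hif1a and Pfkm (Tet2-KO) in CFU-E stage cells. The DESeq2 test lost Aldoa in WT HSC-like cells, Pfkfb4 in WT granulocyte progenitors and Pdk1, Hif1a and Pfkm in Tet2-KO CFU-E stage cells. These CFU-E stage calls were also lost without the cells of most UMIs. Without the filter on low counts, the WT losses were Gapdh in immature myeloid progenitors, Tkt and Pfkfb4 in granulocyte progenitors and Tpi1 in basophils. Pfkm in Tet2-KO CFU-E stage cells was lost there as well. With the library as the replicate, 8 calls were kept: Ldha in 3 classes, Tpi1 in HSC-like cells and granulocyte progenitors, Pdk1 in immature myeloid progenitors and Slc16a3 in granulocyte progenitors, all in Tet2-KO mice, and Pfkm in WT CFU-E stage cells.

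The pairs nearest to the threshold that did not pass were, in WT mice, Hif1a in immature myeloid progenitors (log2 fold change 0.93, adjusted p = 0.052), Gapdh in HSC-like cells (-0.57, 0.062), Gapdh in basophils (-0.47, 0.067) and Aldoa in basophils (-0.45, 0.072). In Tet2-KO mice they were Taldo1 in CFU-E stage cells (-0.26, 0.0605), Pfkp in CFU-E stage cells (0.68, 0.064), Ldhb in HSC-like cells (-0.90, 0.083) and Pdha1, a subunit of pyruvate dehydrogenase, in monocytes (0.46, 0.094).

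The same fits in 2 further classes, chosen after values had been seen, showed Ldha and Tpi1 lower in both genotypes. In megakaryocyte progenitors Ldha was at 516, 751, 544 and 598 CPM in WT vehicle mice and 438, 458, 369.7 and 421 CPM in WT IL1β mice, and at 604, 712, 628 and 740.0 CPM and 422, 440.2, 389.96 and 436 CPM in Tet2-KO mice. Neither genotype overlapped, and the log2 fold changes were -0.49 (adjusted p = 0.010) and -0.66 (adjusted p = 0.00037). Tpi1 was lower there as well, with log2 fold changes of -0.67 in WT (adjusted p = 0.0051) and -0.66 in the knockout (adjusted p = 0.0019). In all, 6 of 20 genes were lower in WT megakaryocyte progenitors (background 8.85%), namely Aldoa, Tpi1, Gapdh, Eno1, Pkm and Ldha (4 lower with library totals), whereas in the knockout 3 were lower and 1, Gpi1, higher (background 16.2%). Without WT IL1β mouse 3 the WT calls of Ldha (adjusted p = 0.052), Aldoa (0.080), Eno1 (0.073) and Pkm (0.087) were lost. Aldoa was also lost without WT vehicle mouse 4 or IL1β mouse 1 (up to 0.073), Eno1 without WT vehicle mouse 1, 3 or 4 or IL1β mouse 1 (up to 0.099) and Pkm without WT vehicle mouse 1 or 4 or IL1β mouse 2 or 4 (up to 0.14). In the knockout Gapdh was lost without vehicle mouse 4 or IL1β mouse 1 (up to 0.072) and Gpi1 without vehicle mouse 2 or 4 or IL1β mouse 1, 2 or 4 (up to 0.11).

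Monocyte-primed progenitors had 1 gene higher and 3 lower of 31 in WT (background 21.4%) against 3 higher and 6 lower in the knockout (background 29.1%). With library totals the split turned to 4 higher and 2 lower in WT and 5 higher and 4 lower in the knockout. Ldha was lower in both (-0.55, adjusted p = 0.013, and -0.67, adjusted p = 0.0021), as were Ldhb (-0.77 and -0.39) and Tpi1 (-0.36 and -0.47), and Hif1a was higher in both (0.63 and 0.42). The WT calls of Ldha and Tpi1 were lost without WT IL1β mouse 3 (adjusted p = 0.065 and 0.068), and that of Tpi1 also without WT vehicle mouse 1 or IL1β mouse 4 (0.058 and 0.051). In the knockout, Ldhb was lost without vehicle mouse 3 or 4 or IL1β mouse 1, 2 or 4 (up to 0.11) and Hif1a without vehicle mouse 3 or 4 or IL1β mouse 2 or 3 (up to 0.12). Another 5 genes passed in the knockout. Eno3, an enolase of muscle, had the largest change there, at 2.3, 2.3, 4.8 and 4.5 CPM with vehicle and 2.8, 1.1, 0.97 and 1.0 CPM with IL1β (-1.28 ± 0.40, adjusted p = 0.020), and lost the call without vehicle mouse 3 or 4 or IL1β mouse 2, 3 or 4 (0.053 to 0.086). At these levels each value of Eno3 rests on few UMIs. Pgam1 was lower (-0.34, adjusted p = 0.0079), as was Pfkp (-0.37, adjusted p = 0.045, called in 6 of 16 fits that left out 1 mouse). Pfkm was higher (0.68, adjusted p = 0.026, lost without vehicle mouse 1 or 3 or IL1β mouse 1, up to 0.12), as was Hk3 (0.26, adjusted p = 0.022, lost without vehicle mouse 1 or IL1β mouse 4, up to 0.082). WT values were -0.46 for Eno3, -0.19 for Pgam1, -0.10 for Pfkp, 0.36 for Pfkm and 0.07 for Hk3, and the interaction was called for none of the 5 (adjusted p = 0.9999 for each).

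Mouse values of Ldha in monocyte-primed progenitors were 402, 374, 368 and 367 CPM with vehicle and 365, 254, 192 and 218 CPM with IL1β in WT, against 346, 385, 424 and 443 CPM and 209, 221, 277 and 299.9 CPM in Tet2-KO mice. The highest WT IL1β mouse lay just below the lowest WT vehicle mouse. Of the 23 calls in both further classes, 9 held whichever mouse was left out and 3 held with the library as the replicate.

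Shares of isozymes were compared between conditions in 138 exact two-sided permutation tests over mice. The smallest p was 0.02857, which is the smallest that 4 mice against 4 allow and was reached by 11 tests, and the smallest adjusted p was 0.358, so no share passed. After the adjustment a share could pass only if most of the tests reached that p. Among the separated shares, Pfkm went from 53.3% to 61.7% of phosphofructokinase UMIs with IL1β in WT CFU-E stage cells while Pfkl went from 36.8% to 27.1%. Slc16a1 went from 84.9% to 75.1% of Slc16a1 and Slc16a3 UMIs with IL1β in WT granulocyte progenitors. With vehicle, the Hk3 share was 59.1% in WT and 51.7% in Tet2-KO granulocyte progenitors, and the Hk2 share 18.7% and 23.2%. In basophils with vehicle the Hk3 share was 36.3% in WT and 23.3% in Tet2-KO mice, and the Hk2 share 32.9% and 52.6%.

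Other genes of connected pathways, taken from lists written out with the design, were counted in the same fits. The calls of these list genes, those between genotypes included, were not checked by leaving out 1 mouse or under other settings. Over all genes tested, 27% passed in WT and 37.5% in Tet2-KO granulocyte progenitors, with medians of 0.04 in both on the log2 scale, and 18.6% and 16.9% passed in CFU-E stage cells. Of 18 tricarboxylic acid cycle genes tested there, IL1β raised 2 and lowered 6 in WT cells (median -0.22) and raised 1 and lowered 8 in Tet2-KO cells (median -0.22). Sdhb, an iron-sulfur subunit of succinate dehydrogenase, was lower (-0.83 in WT and -0.90 in Tet2-KO mice), as was Suclg1 of succinyl-CoA ligase (-0.62 and -0.66), whereas Sdha, the flavoprotein subunit, was higher (0.41 and 0.26). In CFU-E stage cells 3 of the list were higher and 4 lower in WT, against 2 higher and 3 lower in the knockout. Of 11 genes tested for pyruvate entry into mitochondria, 1 was lower in WT granulocyte progenitors (median 0.01) and 2 in Tet2-KO ones (median -0.13). Among them, Mpc2, a subunit of the carrier that brings pyruvate into mitochondria, was lower in granulocyte progenitors (-0.49 and -0.42) and CFU-E stage cells (-0.43 and -0.36).

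Of 8 other pentose and ribose phosphate genes tested in granulocyte progenitors, 3 were higher and 1 lower in WT (median 0.20) against 1 higher and 1 lower in the knockout (median -0.01). Pgls, the lactonase between the oxidative steps, was lower in granulocyte progenitors (-0.61 and -0.49), immature myeloid progenitors (-0.75 and -0.54), basophils (-0.48 and -0.55) and CFU-E stage cells (-0.54 and -0.42) of WT and Tet2-KO mice. Prps1, which makes the activated ribose phosphate for nucleotides, was higher in CFU-E stage cells of both (0.76 and 0.57). From the list of HIF1 regulators and targets, 15 were tested in granulocyte progenitors, of which 6 were higher in WT (median 0.27) against 8 higher and 1 lower in the knockout (median 0.38), beside the 27% and 37.5% of all genes. Those higher in both included Bnip3l, a receptor for the removal of mitochondria (0.27 and 0.49), Egln3, an oxygen-sensing hydroxylase (0.28 and 0.25), Ero1l of oxidative protein folding (0.63 and 0.38), the Myc antagonist Mxi1 (0.83 and 0.81) and Ndrg1 (0.42 and 0.78). Of the 22 other glycolytic isozymes and side enzymes, 11 were tested in granulocyte progenitors, of which Pgm2 was higher in WT and Fbp1 higher and Tigar lower in Tet2-KO mice (medians 0.08 and -0.02). Of 24 S phase and G2M genes, 4 were higher and 4 lower in WT granulocyte progenitors (median 0.08) and 6 lower in Tet2-KO ones (median -0.04), near or below the shares of all genes. In CFU-E stage cells 5 were higher and 5 lower in WT (median 0.02), above the share of all genes, and 2 higher and 4 lower in the knockout (median 0.00).

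Between genotypes, edgeR called 0 of the 154 pairs with vehicle, 0 with IL1β and 0 for the interaction of genotype and IL1β, with 6, 7 and 4 at an unadjusted p under 0.05. DESeq2 also called 0 in each. Few genes of any kind passed these tests: the backgrounds were 0.0921% with vehicle, 0.0655% with IL1β and 0.00614% for the interaction. The lowest p with vehicle was that of Hk3 in granulocyte progenitors, at 124, 132, 135 and 126 CPM in WT and 106, 104, 113 and 94.2 CPM in Tet2-KO mice. These did not overlap, but the log2 fold change of -0.31 ± 0.08 had an adjusted p of 0.20. With IL1β the values were 116, 136, 136 and 137 CPM and 116, 112, 115 and 111 CPM (-0.20, adjusted p = 0.49). Hk3 in basophils with vehicle stood at 79.0, 92.4, 99.1 and 111.0 CPM in WT and 62.2, 34.5, 66.8 and 64.3 CPM in Tet2-KO mice (-0.66, adjusted p = 0.97). With IL1β, the next were Slc16a1 in HSC-like cells (-1.01, adjusted p = 0.59), Pgd in HSC-like cells (0.71, 0.53) and Aldoa in HSC-like cells (0.63, 0.53). Outside the 32 genes, Mxi1 of the HIF1 list was lower in Tet2-KO than in WT granulocyte progenitors with vehicle (-0.66, adjusted p = 0.032) and with IL1β (-0.69, adjusted p = 0.0054), and Vegfa of the same list was lower with vehicle (-0.65, adjusted p = 0.042).

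Taken over all 32 genes, the mean of log2(CPM + 1) per mouse overlapped between IL1β and vehicle in each main class and genotype except CFU-E stage cells. There the group means were 4.60 and 4.80 in WT and 4.58 and 4.78 in Tet2-KO mice with vehicle and IL1β. These means use plain CPM without TMM scaling, on which all-gene levels also shifted upward with IL1β as given above, and no test was made since the genes were chosen with results known.

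**Figure D5:**
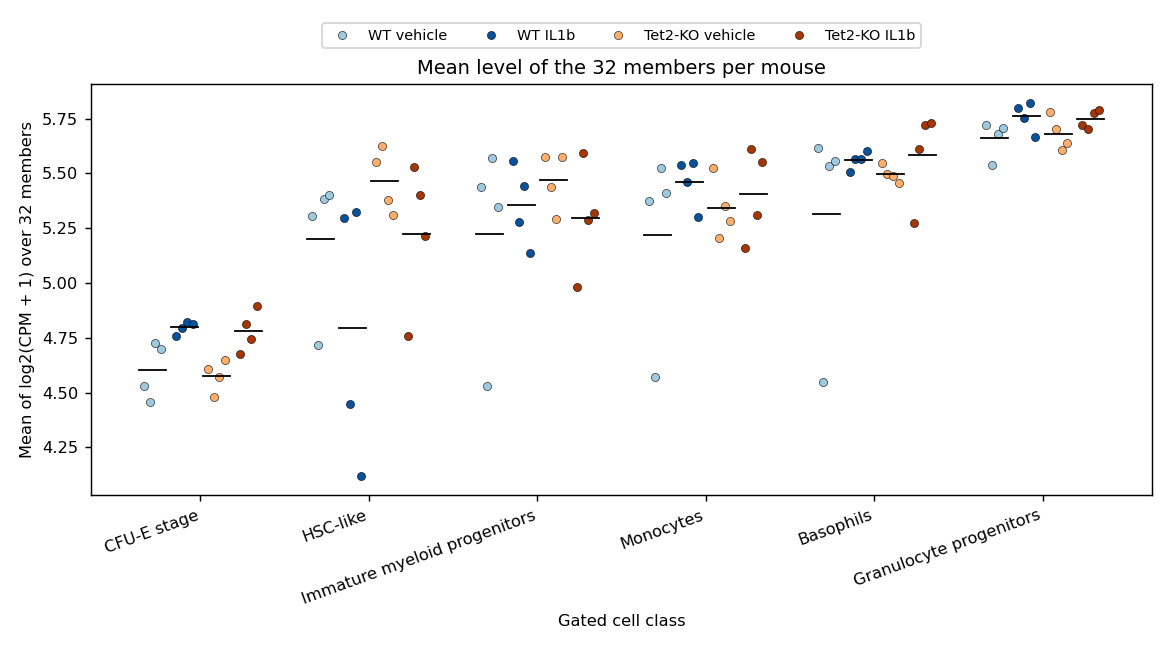
Mean of log2(CPM + 1) over the 32 genes (y axis) for each mouse (points) in the 6 main classes and 4 groups (x axis), with a line at each group mean. The vehicle and IL1β points separate only in CFU-E stage cells (4.60 against 4.80 in WT), and WT vehicle mouse 2, which had the fewest cells, lies low in several classes.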

How the data were processed

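Lineage-negative marrow cells of 16 mice were profiled with 10x Genomics 3′ libraries, v3.1 chemistry, in which a transcript gives tags at its 3′ end whatever its length. The authors deposited filtered matrices of whole-number UMI counts per gene and barcode, hashtag counts included, made with Cell Ranger 3.1.0 on mm10 per the submitters' processing notes, which also name Seurat 3.2.3. The mouse of each hashtag came from the authors' list.

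Of 121405 barcodes, cells with at least 750 genes and at most 10% mitochondrial UMIs were kept. Hashtags were called with HTODemux (Seurat 5.3.0), and cells with both hashtags were dropped as doublets, which leaves doublets within a mouse. Gates on fixed marker UMIs, which deeper cells pass more easily, took 73.99% of the assigned cells, and no deposited annotation of cells was used. UMIs were summed per mouse and class (at least 10 cells), which gave 33535 to 13719678 UMIs in the main classes, and the sums were tested with edgeR 4.0.16 in R 4.3.3 (TMM, filterByExpr, quasi-likelihood test, the 4 groups in 1 fit, Benjamini-Hochberg over all genes of a class, adjusted p under 0.05). Classes were compared with the mouse as a block. This design was chosen here so that the mouse was the replicate. Scripts were tested on simulated counts. Isozyme shares were compared by exact permutation tests over mice (scipy 1.17.1).

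Named genes were, in each comparison, the called members, at most 12 with the largest changes in the class comparison, and up to 4 uncalled ones with the smallest p, plus isozymes of described steps. The members, lists, gates and tests were chosen with earlier results of these data known. Alternatives were DESeq2 1.42.0, other size factors, no filter on low counts, a replicate block, a sex term, the library as the replicate, stricter gates (higher marker thresholds), a stricter cell filter (at least 1500 genes, at most 5% mitochondrial UMIs), classes from clusters, cells without the top 5% of UMIs, and each mouse left out. Intervals and tests cover the spread between these mice. The aligner's settings and the counting of reads that match several genes are not given in the sources used here.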

Additional observations from a re-analysis of the deposited data

Results flagged for a closer look

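Among 90 groups of 4 mice examined, 4 held a mouse that stood apart from the other 3 by Dixon's criterion, which chance alone would meet in about 1 in 20 groups. For the mean of log2(CPM + 1) over the 32 genes, WT vehicle mouse 2 stood apart in HSC-like cells at 4.7153 (the others 5.3062 to 5.4012), in monocytes at 4.5708 (5.3738 to 5.5240) and in basophils at 4.5478 (5.5336 to 5.6151). This mouse had the fewest cells (698), and the part of its low cell number in these values was not tested. Pfkm in CFU-E stage cells of Tet2-KO vehicle mouse 1 stood apart at 46.58 CPM of TMM-scaled totals (the others 38.15 to 39.56).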

How the results depend on the processing

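Of the 33 IL1β calls in the main classes, none reversed under any alternative. The numbers kept were 32 with DESeq2's size factors in edgeR, 28 with the DESeq2 test, 28 without the filter on low counts, 32 with a sex term, 22 with stricter gates, 19 with classes from clusters, 30 without the cells of most UMIs, 19 with the stricter cell filter and 8 with the library as the replicate. Leaving out 1 mouse at a time kept 439 of 528 values, and 12 of the 33 calls held throughout. The Tet2-KO calls of Tpi1 and Ldha in granulocyte progenitors and the WT call of Pfkm in CFU-E stage cells held under every alternative. Of the 23 calls in the further classes, added after seeing the data, leaving out 1 mouse kept 314 of 368 values and the other alternatives 223 of 275.

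The WT count of 16 pairs became 2 with the library as the replicate, 10 with stricter gates and 5 to 19 when 1 mouse was left out. The Tet2-KO count of 17 became 9 with the library as the replicate, 27 with library totals in place of TMM (added after seeing the data), and 10 to 29 when 1 mouse was left out. With a pseudocount of 10 in place of 1, the mean level over the 32 genes moved from 5.1726 to 5.8282 in HSC-like cells, from 5.3355 to 5.9576 in immature myeloid progenitors, from 5.7136 to 6.2248 in granulocyte progenitors, from 5.3583 to 5.9824 in monocytes, from 5.4891 to 6.0651 in basophils and from 4.6902 to 5.5380 in CFU-E stage cells. The comparisons between genotypes and the interaction stayed at 0 calls under the alternatives run. The isozyme tests did too, which says nothing about stability, since too few mice were compared for a share to pass.

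With the replicate number as a block, 15 pairs passed in WT (6 higher, 9 lower), 17 in Tet2-KO mice (6 higher, 11 lower) and 0 in the comparisons between genotypes and the interaction, and 31 of the 33 calls were kept. The numbers did not pair the mice: correlations of their deviations ran from -0.27 to 0.32. In the class comparison, where the block is the mouse itself, 90 pairs passed with no replicate block against 89 with it. Library totals there gave 90 (65 higher, 25 lower), and leaving out 1 mouse gave 87 to 95. Among the main classes, depth limits the HSC-like and immature myeloid classes most. There as few as 10 and 17 cells stood for a mouse and 12 and 9 of the 32 genes had too few UMIs to be tested. Of the further classes, megakaryocyte progenitors had as few as 16 cells for a mouse and 12 genes not tested.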
